A study of Caenorhabditis elegans with 12 samples.

Results

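The mature miRNAs of whole Caenorhabditis elegans grown on high glucose with naringin (Nar + Glu) were compared with those of untreated worms (Control), to see which miRNAs of high-glucose-induced (HGI) worms given Nar lay away from the untreated level. All 6 libraries labelled with these treatments were taken out of 12 in all, 3 from each group. The count table held 263 distinct mature miRNA names, of which 223 had enough reads to be tested. The other 40 had mean counts of 11 or less over the 6 libraries and were left untested.

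All worms were wild type N2, fed OP50 bacteria at 20 °C. Nar + Glu worms were grown from the L4 larval stage for 5 d with 2% glucose and 25 μM Nar, a flavonoid glycoside of citrus fruit, dissolved in 0.1% DMSO. Control worms had neither glucose nor DMSO, so what glucose, solvent and Nar each contributed cannot be told apart in this comparison. For this reason the values of worms on glucose alone (Glu) and on glucose with the solvent (DMSO + Glu), each set against the same Control libraries, are given beside most of the miRNAs described by library, and their adjusted p are from the same edgeR test. The labels do not say whether the 3 libraries of a group came from separate cultures, so the p-values measure the spread between these libraries, which may be technical.

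A miRNA is cut from a hairpin precursor, one arm of which (5p or 3p) is usually loaded into an Argonaute protein and guides it to messenger RNAs, while the other arm is mostly degraded. The loaded miRNA binds its targets through the bases near its own 5′ end, the seed, and miRNAs that share a seed form families. In C. elegans miRNAs were first known for setting the timing of larval development, and some also shape lifespan and stress resistance in the adult.

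Sequencing depth differed between the groups, with 2640879 to 3141140 counts per library in Nar + Glu and 4990586 to 5868806 in Control. Nearly every name was detected in each library (262 or 263 of 263 in both groups). Markers of the main tissues were present in all 6 libraries, among them miR-1-3p of muscle, miR-60-3p of intestine, miR-124-3p and lsy-6-3p of neurons, and the miR-35 family of embryos, which gravid worms carry. Levels are given in CPM, that is counts scaled to a common library total with TMM factors over all 12 libraries. The summed level of the 5 neuronal miRNAs was 600 to 733 CPM in Nar + Glu and 550.2 to 610.2 in Control, that of the 2 intestinal miRNAs 1818 to 1973 in Nar + Glu and 1641 to 1971 in Control, and that of the 8 embryonic miRNAs 97968 to 122316 in Nar + Glu and 114018 to 136053 in Control. By an exact permutation test of 3 libraries against 3, two-sided and with 0.1 as its lowest possible p, these 3 sums gave p = 0.2, 0.6 and 0.3. In whole worms, fewer cells of a type and less of a miRNA per cell cannot be told apart.

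The main difference in composition was in miR-1-3p, the muscle miRNA and the most abundant one. It took 34.5%, 34.6% and 28.9% of all counts in the Nar + Glu libraries, against 38.1%, 48.2% and 44.9% in the Control libraries. Every Nar + Glu library lay below every Control library. The mean share was 32.7% ± 3.29 (SD, n = 3) in Nar + Glu and 43.7% ± 5.14 (SD, n = 3) in Control, a difference of −11.1 points (exact permutation, two-sided, p = 0.1, the lowest possible). The 5 most abundant miRNAs together (miR-1-3p, miR-58a-3p, miR-70-3p, miR-35-3p and miR-37-3p) took 61.4% ± 0.718 (SD, n = 3) in Nar + Glu and 69.6% ± 3.32 (SD, n = 3) in Control. Of these 5, only miR-1-3p had the lower mean share in Nar + Glu. The mean share of miR-58a-3p, for example, was 13.4% in Nar + Glu and 12.6% in Control.

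Because a miRNA this abundant moves the share of all others, the scale matters to every direction given here. The trimmed mean of M-values (TMM), used throughout unless another scale is named, sets each library by the bulk of its miRNAs, and over these 6 libraries its factors ran from 1.08 to 1.28 in Nar + Glu and from 0.748 to 0.913 in Control. Scaled by total counts alone, the log2FC of a miRNA was higher by a median of 0.47 than with TMM. The median log2FC over the 223 miRNAs was 0.03 with TMM and 0.49 with total counts. With miR-1-3p itself left out before TMM scaling, the count of calls was about the same (75 in place of 77, under the thresholds given next). Since TMM rests on the bulk of the miRNAs, leaving out 1 of them could change little, so this count is no test of the scale.

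Past the thresholds of the study (a fold change over 1.5, that is |log2FC| > 0.585, with an unadjusted p under 0.05), 77 of 223 miRNAs differed between Nar + Glu and Control in edgeR's quasi-likelihood test, which is 34.5% of those tested. Of these, 39 were higher (17.5%) and 38 lower (17%) in Nar + Glu. With total counts alone, 97 were higher and 7 lower. Total counts raised the log2FC of every miRNA by a similar amount, from 0.44 (miR-359) to 0.50 (let-7-5p). The 39 higher calls therefore stayed higher, and none of the 38 lower ones could turn into a higher call. Neither outcome is a test of those calls. Of the 38 lower ones, 31 no longer passed. The 7 that were lower on both scales were miR-241-5p, miR-1817, miR-48-5p, let-7-5p, miR-253-5p, miR-41-5p and miR-39-5p.

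With a Benjamini-Hochberg adjusted p under 0.05 in the same test and no fold threshold, 106 miRNAs (47.5%) differed, 52 higher (23.3%) and 54 lower (24.2%). Of the 77 past the study's thresholds, 76 were also among these 106, and the exception was miR-4807 (adjusted p = 0.0818). The other 30 of the 106 changed by less than 1.5-fold. The CPM values of the groups did not overlap in 73 of the 77, against 119 of all 223 miRNAs tested (53.4%). Lack of overlap goes with a small p, by which many miRNAs below were chosen, and was required of the largest rises and falls. For the named miRNAs it is therefore a description and adds no support to the calls.

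**Figure D1:**
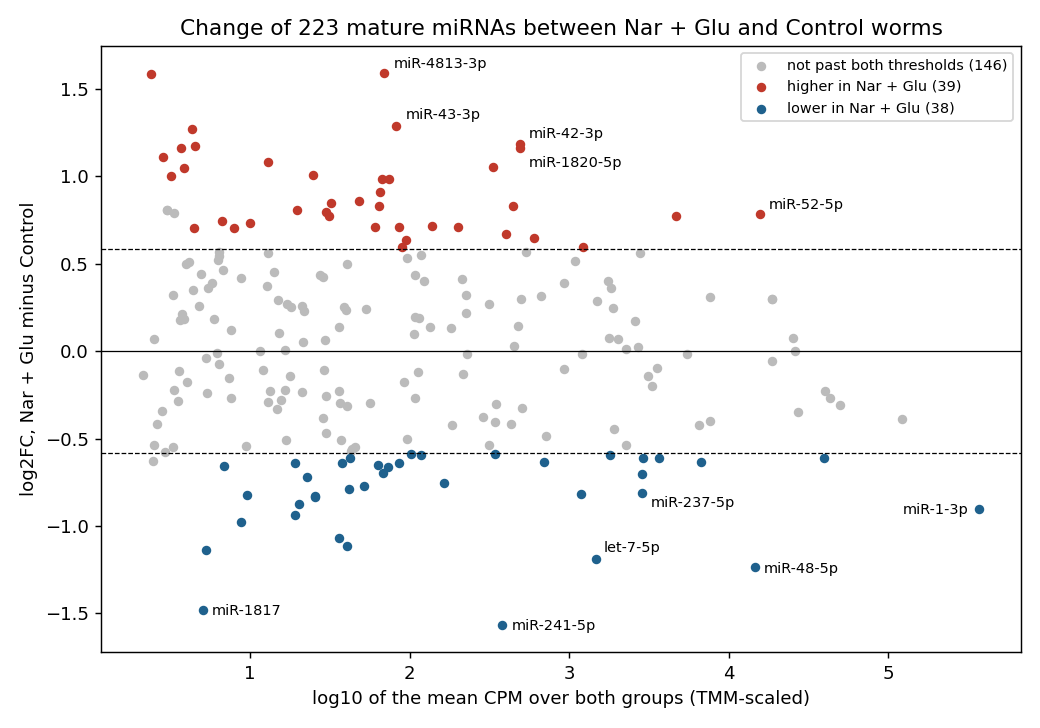
The log2FC of each of the 223 miRNAs tested (vertical axis, Nar + Glu minus Control) is plotted against log10 of its mean CPM over both groups (horizontal axis), with dashed lines at a fold of 1.5, red points for the 39 higher and blue points for the 38 lower in Nar + Glu past both thresholds. The most abundant higher call was miR-52-5p, and the most abundant lower call was miR-1-3p, which is also the most abundant of all.

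The let-7 sisters had the lowest median log2FC of the families examined. These 4 miRNAs share a seed and act in the heterochronic pathway, the clock of larval development: let-7 represses lin-41 and is needed for the step from the last larval stage to the adult, and miR-48, miR-84 and miR-241 act earlier by repressing hbl-1. The summed level of these 4 and lin-4-5p was 11657 to 13587 CPM in Nar + Glu and 22442 to 31692 CPM in Control (two-sided exact permutation test, p = 0.1, the lowest 3 against 3 libraries can give). All 4 guide arms were lower past the study's thresholds, as were 17% of all miRNAs tested. Their median log2FC was −1.21 against 0.03 over all miRNAs tested. Under total counts the median was −0.73 against 0.49 over all, and 3 of the 4 remained lower calls.

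let-7-5p, from a precursor between protein-coding genes on chromosome X (WBcel235, X:14744173-14744271, minus strand), measured 901, 759 and 1067 CPM in Nar + Glu, against 1907, 2464 and 1796 CPM in Control. The highest Nar + Glu library was well below the lowest Control library. Its log2FC was −1.19 ± 0.15 (SE, n = 3 each; edgeR quasi-likelihood test, Benjamini-Hochberg adjusted p = 1.31e-05). With the same Control libraries, the log2FC of let-7-5p was −0.04 in Glu (adjusted p = 0.91) and −0.43 in DMSO + Glu (adjusted p = 0.0271).

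The precursors of miR-48 and miR-241 lie 1872 bases from end to end on the minus strand of chromosome V (V:14364412-14366283), between protein-coding genes. miR-48-5p, the most abundant sister, measured 9749, 8164 and 8307 CPM in Nar + Glu, against 16338, 20629.9 and 24710.2 CPM in Control. miR-241-5p measured 198, 147 and 236 CPM in Nar + Glu, against 449, 539.8 and 717 CPM in Control. In neither did the groups overlap, which the rule for the largest falls required. The log2FC was −1.24 ± 0.16 for miR-48-5p (edgeR, adjusted p = 1.31e-05) and −1.56 ± 0.18 for miR-241-5p (edgeR, adjusted p = 3.91e-06), the lowest value of all 77 calls. The passenger arms of both also fell, miR-48-3p by 0.79 and miR-241-3p by 0.94 on the log2 scale (edgeR, adjusted p = 0.000882 and 0.00146), so all 4 arms of this cluster were lower. Under total counts miR-48-3p and miR-241-3p no longer passed (log2FC −0.32 and −0.48). Against the same Control libraries, miR-48-5p was also lower in Glu (log2FC −0.76, adjusted p = 0.00842) and in DMSO + Glu (−0.90, adjusted p = 0.000661). For miR-241-5p the log2FC was −0.50 in Glu (adjusted p = 0.103) and −0.85 in DMSO + Glu (adjusted p = 0.000691).

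miR-84-5p, on chromosome X (X:16022404-16022478), measured 2269.8, 2129.85 and 2519 CPM in Nar + Glu, against 3245, 3384 and 3880.4 CPM in Control. Its log2FC of −0.61 ± 0.13 (edgeR, adjusted p = 0.000903) was the smallest of the 4 and just past the fold threshold, and under total counts it was −0.14 (adjusted p = 0.511). In Glu its log2FC against Control was −0.18 (adjusted p = 0.455) and in DMSO + Glu −0.40 (adjusted p = 0.0249). The passenger arms let-7-3p (log2FC −0.87) and miR-84-3p (−0.51) were also lower at an adjusted p of 0.0013 and 0.0152 in edgeR's test, miR-84-3p by less than 1.5-fold, so both arms of all 4 sisters were lower on the TMM scale.

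lin-4, the first miRNA found, represses lin-14 and lin-28 early in larval life, and miR-237 shares its seed. miR-237-5p (X:8154084-8154182) measured 2356, 2204 and 1643 CPM in Nar + Glu, against 3522, 3977 and 3359 CPM in Control, with no overlap and a log2FC of −0.81 ± 0.15 (edgeR, adjusted p = 0.000667). lin-4-5p, from an intron of F59G1.4 on chromosome II (II:5902254-5902347), measured 468, 457 and 419.8 CPM in Nar + Glu, against 503, 592 and 588 CPM in Control. The lin-4-5p groups lay apart but close together, and the log2FC was −0.33 ± 0.13 (edgeR, adjusted p = 0.0469), less than 1.5-fold. Under total counts miR-237-5p was at −0.34 (adjusted p = 0.0781) and lin-4-5p at 0.15 (adjusted p = 0.473), so neither was called on that scale. Set against Control, miR-237-5p had log2FC of −0.26 in Glu and −0.01 in DMSO + Glu, and lin-4-5p 0.12 in Glu and 0.15 in DMSO + Glu, none with an adjusted p under 0.05 in edgeR's test.

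**Figure D2:**
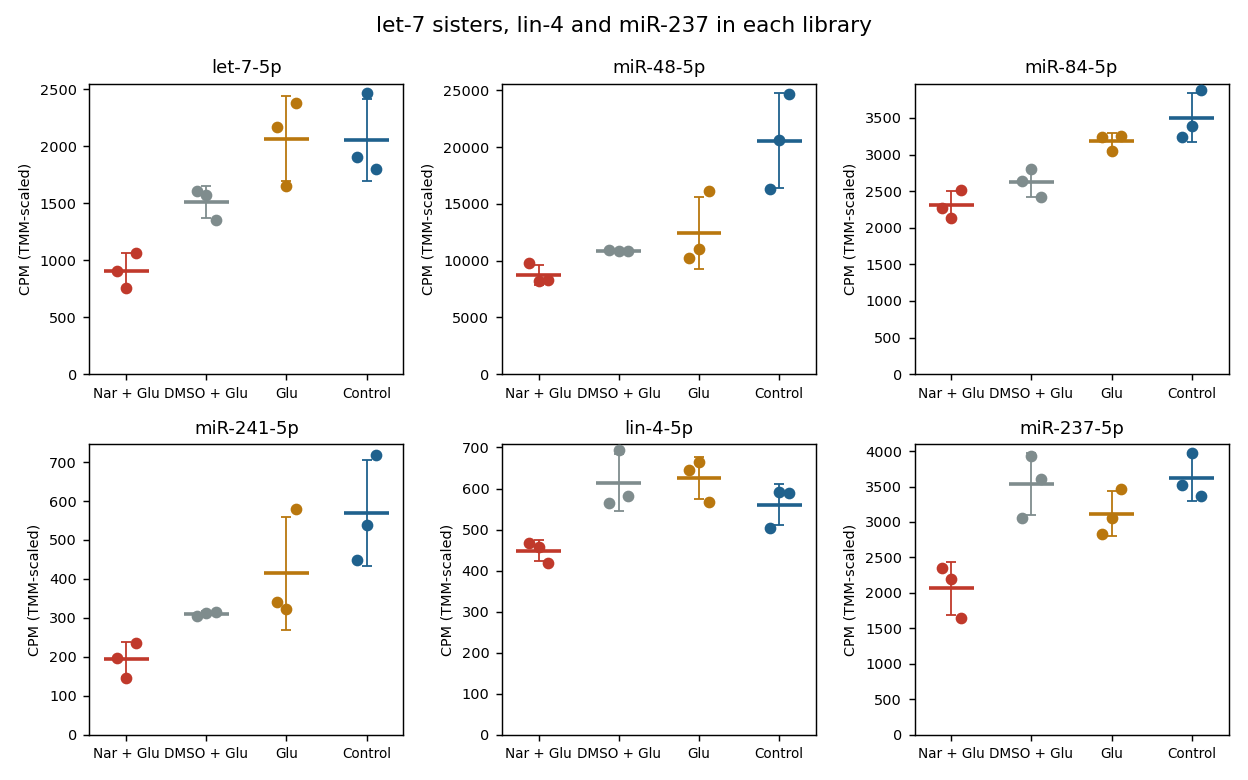
CPM of the let-7 sisters, lin-4-5p and miR-237-5p in each library of Nar + Glu, DMSO + Glu, Glu and Control worms, with a bar at the mean of 3 libraries and a whisker of 1 SD. In each panel all 3 Nar + Glu points lie below all 3 Control points, and for let-7-5p the Nar + Glu points run from 759 to 1067 CPM against 1796 to 2464 CPM in Control.

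Among the miRNAs that were higher in Nar + Glu, miR-4813-3p had the smallest p of all 223. Its precursor overlaps an exon of idhg-1, a subunit gene of mitochondrial isocitrate dehydrogenase, on the same strand of chromosome III (III:4571640-4571716). miR-4813-3p measured 106, 113 and 93.9 CPM in Nar + Glu, against 32.9, 32.8 and 38.2 CPM in Control. The groups were far apart, and the 3.01-fold difference (log2FC 1.59 ± 0.15, edgeR, adjusted p = 7.32e-07) was the largest rise. It was also higher in Glu (log2FC 0.87, adjusted p = 0.00469) and in DMSO + Glu (log2FC 0.95, adjusted p = 0.000397), each against the same Control libraries. The other arm, miR-4813-5p, is the commoner, with a mean count of 1913 against 285 for miR-4813-3p. It was higher too (log2FC 0.83, adjusted p = 0.00719), although the groups overlapped, with 669.7, 707.6 and 331.9 CPM in Nar + Glu against 249, 294 and 424 CPM in Control. Unlike miR-4813-3p, it was not higher in Glu (log2FC −0.38, edgeR, adjusted p = 0.202) or in DMSO + Glu (−0.06, adjusted p = 0.841), each against Control.

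miR-42 and miR-43 are neighbours on chromosome II (II:11889811-11890007, plus strand), followed at once by miR-44 (to 11890118). miR-42-3p, of the embryonic miR-35 family, measured 723, 662 and 660.2 CPM in Nar + Glu, against 297, 304 and 293 CPM in Control. miR-43-3p, of the miR-2 family, measured 113, 129 and 110.1 CPM in Nar + Glu, against 45.3, 54.1 and 44.1 CPM in Control. Both were more than doubled without overlap, by a log2FC of 1.19 ± 0.13 for miR-42-3p (edgeR, adjusted p = 2.56e-06) and 1.29 ± 0.15 for miR-43-3p (edgeR, adjusted p = 4.4e-06). miR-44-3p of the same cluster had a log2FC of 0.30 (adjusted p = 0.179), but its counts were identical to those of miR-45-3p in every library, so its own level is uncertain. Against Control, miR-42-3p was also higher in Glu (log2FC 0.80, adjusted p = 0.00383) and in DMSO + Glu (0.97, adjusted p = 3.2e-05), whereas miR-43-3p had log2FC of 0.35 in both, with adjusted p of 0.326 in Glu and 0.0777 in DMSO + Glu.

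miR-2-3p, of the same family as miR-43-3p, comes from an intron of ppfr-1, a protein phosphatase regulatory subunit gene, on chromosome I (I:9372768-9372865). It measured 423, 437 and 497 CPM in Nar + Glu, against 211, 251 and 188 CPM in Control. The groups did not overlap, and the log2FC was 1.05 ± 0.14 (edgeR, adjusted p = 2.12e-05). miR-71, which promotes a long lifespan in worms, lies in an intron of the same gene on the same strand (I:9379927-9380020), yet its guide arm differed in the other direction, with miR-71-5p at 32335.5, 29739.5 and 32115.5 CPM in Nar + Glu, against 41954, 43651 and 58237 CPM in Control. Its log2FC was −0.61 ± 0.15 (edgeR, adjusted p = 0.00326), but under total counts only −0.15 (adjusted p = 0.477). Against Control, miR-2-3p had log2FC of 0.53 in Glu (adjusted p = 0.0868) and 0.56 in DMSO + Glu (adjusted p = 0.00493), and miR-71-5p −0.22 in Glu (adjusted p = 0.451) and −0.33 in DMSO + Glu (adjusted p = 0.147).

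Of the remaining miRNAs with the smallest p, miR-1820-5p, on chromosome IV (IV:7767461-7767567), measured 674, 734 and 627 CPM in Nar + Glu, against 337, 267 and 306 CPM in Control. The log2FC was 1.16 ± 0.14 (edgeR, adjusted p = 4.4e-06), while against the same Control it was −0.03 in Glu (adjusted p = 0.939) and 0.37 in DMSO + Glu (adjusted p = 0.109). miR-231-5p, on chromosome III (III:7545057-7545155), measured 105, 97.0 and 93.0 CPM in Nar + Glu, against 49.3, 44.5 and 54.8 CPM in Control, a log2FC of 0.99 ± 0.14 (edgeR, adjusted p = 4.15e-05). In both, the lowest Nar + Glu library was far above the highest Control library. miR-231-5p had log2FC against Control of 0.50 in Glu (adjusted p = 0.0748) and 0.54 in DMSO + Glu (adjusted p = 0.0106).

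The rule of largest change also reached 4 scarce miRNAs whose values rest on few reads. miR-232-5p had 9, 19 and 13 counts in Nar + Glu and 8, 4 and 6 counts in Control (log2FC 1.59 ± 0.44, edgeR, adjusted p = 0.00701), and miR-255-5p had 19, 25 and 25 counts in Nar + Glu and 12, 16 and 10 counts in Control (log2FC 1.27 ± 0.33, adjusted p = 0.00479). In both, the raw counts were already higher in every Nar + Glu library, although these libraries were the shallower ones. In the other direction, miR-1817 had 8, 10 and 12 counts in Nar + Glu and 36, 36 and 41 in Control, or 2.17, 2.46 and 3.41 CPM in Nar + Glu against 7.31, 7.67 and 7.39 CPM in Control (log2FC −1.48 ± 0.30, edgeR, adjusted p = 0.000882). miR-253-5p had 13, 9 and 15 counts in Nar + Glu and 35, 35 and 40 in Control (log2FC −1.14 ± 0.30, adjusted p = 0.00508). The 95% interval of miR-232-5p ran from 0.66 to 2.51, so its size is known poorly, and under total counts miR-253-5p was at −0.67 with an adjusted p of 0.0871. Against Control, miR-255-5p had log2FC of 0.46 in Glu and 0.75 in DMSO + Glu, miR-1817 −0.09 in Glu and −0.85 in DMSO + Glu, and miR-253-5p −0.82 in Glu and −0.71 in DMSO + Glu. Of these only miR-1817 in DMSO + Glu had an adjusted p under 0.05 in edgeR's test (0.0285), and miR-232-5p was not tested there.

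**Figure D3:**
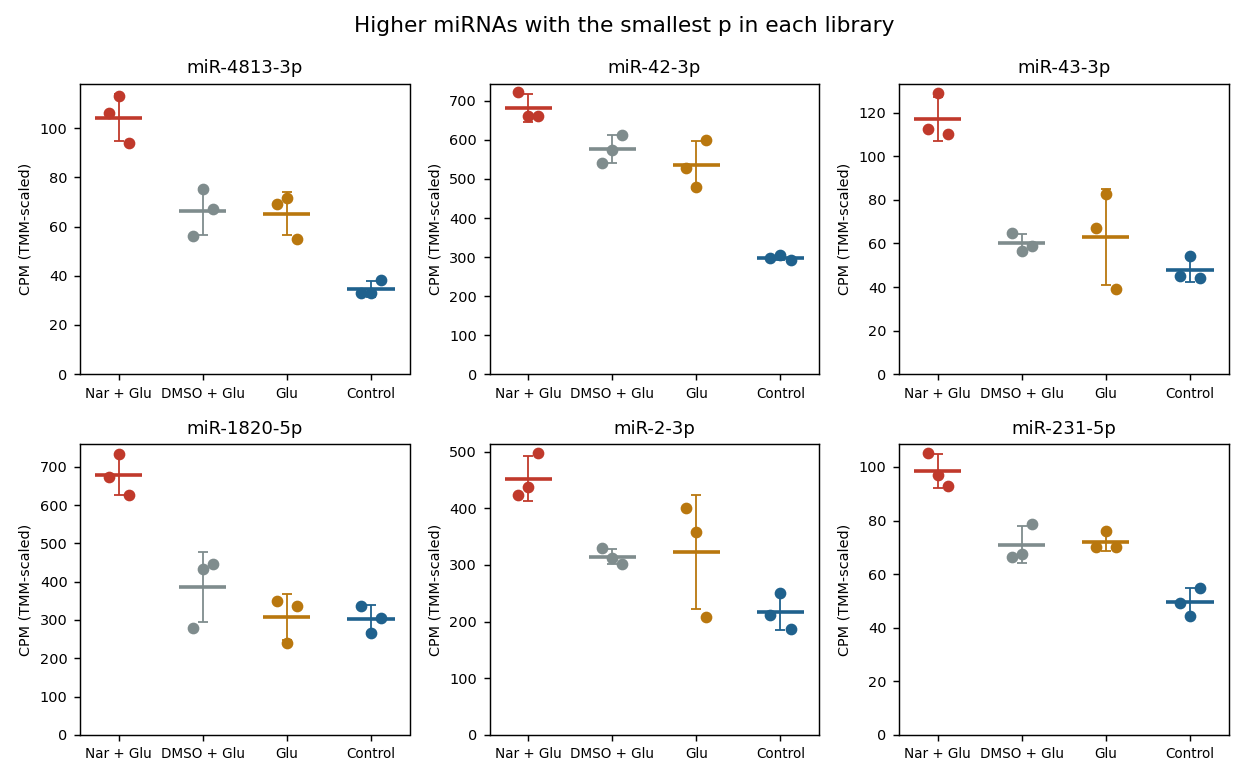
CPM in each library of Nar + Glu, DMSO + Glu, Glu and Control worms for the 6 higher miRNAs with the smallest p, with a bar at the mean of 3 libraries and a whisker of 1 SD. Nar + Glu lies above Control in every library, and for miR-4813-3p the Nar + Glu points run from 93.9 to 113 CPM against 32.8 to 38.2 CPM in Control.

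Apart from the let-7 sisters, no family of more than 2 members had all its members called in one direction. The miR-35 family is supplied to embryos by the mother, and embryogenesis fails without it. Among its 8 members' 3p arms, miR-42-3p and miR-41-3p were higher past the study's thresholds, miR-38-3p was higher by less than 1.5-fold (log2FC 0.36, edgeR, adjusted p = 0.0223), and the other 5 had 95% intervals that lay wholly inside a 1.5-fold change either way. Of all miRNAs tested, 17.5% were higher past the study's thresholds and 18.8% had such an interval. The median log2FC of the 8 3p arms was 0.01, next to 0.03 over all miRNAs tested. miR-41-3p measured 40.4, 47.6 and 30.4 CPM in Nar + Glu, against 21.9, 23.7 and 24.0 CPM in Control, without overlap and with a log2FC of 0.77 ± 0.18 (edgeR, adjusted p = 0.00244). Against Control it was at −0.12 in Glu (adjusted p = 0.777) and 0.32 in DMSO + Glu (adjusted p = 0.165). It lies in the cluster of miR-35 to miR-41, 797 bases long on chromosome II (II:11537608-11538404), apart from miR-42.

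The 5p arms of the same precursors were scarcer than the 3p arms by mean count over the 6 libraries, except in miR-41. Its 5p arm was the commoner in Control (mean log2 5p to 3p ratio 1.22) and the scarcer in Nar + Glu (−0.61). The 5p arms of the family were lower where they were called, in 3 of 8 (37.5%, against 17% of all tested). Their median log2FC was −0.44 with TMM and 0.02 with total counts, which is below the median of all miRNAs on both scales. miR-39-5p measured 23.6, 23.3 and 23.0 CPM in Nar + Glu, against 53.6, 43.5 and 49.2 CPM in Control (log2FC −1.07 ± 0.16, edgeR, adjusted p = 4.94e-05). miR-41-5p measured 29.5, 21.1 and 26.5 CPM in Nar + Glu, against 66.2, 39.8 and 59.8 CPM in Control (log2FC −1.11 ± 0.19, adjusted p = 0.000228), and miR-40-5p 62.3, 75.4 and 64.6 CPM in Nar + Glu, against 108, 101 and 105 CPM in Control (log2FC −0.64 ± 0.14, adjusted p = 0.00134). In none of the 3 did the groups overlap, although miR-40-5p was at −0.17 under total counts (adjusted p = 0.424). Against Control, miR-39-5p had log2FC of −0.88 in Glu and −0.87 in DMSO + Glu, miR-41-5p −0.78 in Glu and −0.95 in DMSO + Glu, and miR-40-5p −0.89 in Glu and −0.58 in DMSO + Glu, all with an adjusted p under 0.05 in edgeR's test.

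A 5p to 3p ratio of one precursor within one library does not depend on how libraries are scaled. In 7 of 8 miR-35 family precursors the log2 ratio was lower in Nar + Glu than in Control, with a median difference of −0.59 and a range from −1.83 (miR-41) to 0.52 (miR-35). Of the 68 other precursors with both arms at a mean count of at least 10, the 5p to 3p ratio was lower in 40, with a median difference of −0.08. The ratio was also taken as scarcer to commoner arm, the scarcer being set over all 12 libraries together. It was then lower in 6 of 8 family precursors (median −0.42) and in 32 of the 68 others (median 0.03). For miR-41 it was at 1.83, as its 3p arm was the scarcer over those libraries, though not in Nar + Glu. Averaged over the family, the log2 ratio was −7.30, −7.17 and −7.49 in the Nar + Glu libraries, against −6.70, −6.75 and −6.48 in the Control libraries. The groups did not overlap, with means of −7.32 ± 0.161 (SD, n = 3) in Nar + Glu and −6.65 ± 0.140 (SD, n = 3) in Control, a difference of −0.68 (exact permutation, two-sided, p = 0.1, the lowest possible). Averaged over the other 68 precursors, the 5p to 3p difference was 0.01 (exact permutation, two-sided, p = 0.9), while the median of their scarcer to commoner ratios differed by −0.20 (exact permutation, p = 0.2). DMSO + Glu had a family mean of −7.46 and Glu one of −7.58. The family's median difference was −0.34 without Nar + Glu replicate 3 and −0.83 without Nar + Glu replicate 2.

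miR-41 was one of only 2 precursors whose arms were called in opposite directions at an adjusted p under 0.05 in edgeR's test, miR-41-3p higher and miR-41-5p lower. The other was miR-63 (miR-63-5p log2FC 0.57, adjusted p = 0.0223, and miR-63-3p −0.54, adjusted p = 0.0031). Among 78 precursors with both arms tested, 7 had both arms higher (miR-49, miR-52, miR-57, miR-86, miR-231, miR-232 and miR-4813), 10 had both lower (the let-7 sisters, miR-77, miR-230, miR-237, miR-250, miR-253 and miR-788), 36 had 1 arm called and 23 had none. These precursors were named after their values were seen. At this adjusted p, 7 miRNAs were lower both with TMM and with total counts, and no precursor had both arms among them. They were miR-241-5p, miR-1817, miR-48-5p, let-7-5p, miR-41-5p, miR-39-5p and miR-1-3p. Under total counts miR-63-3p was at −0.06 (edgeR, adjusted p = 0.778), so the arms of miR-63 were not opposite calls there. miR-1 was among the precursors with 1 arm called with TMM. miR-1-5p had a log2FC of 0.14 and an interval from −0.22 to 0.49, while miR-1-3p had −0.90 ± 0.20 (edgeR, adjusted p = 0.00146). Under total counts miR-1-3p was at −0.42 (edgeR, adjusted p = 0.0198), which is less than 1.5-fold. Against Control it was at −0.08 in Glu (adjusted p = 0.864) and −0.19 in DMSO + Glu (adjusted p = 0.504).

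**Figure D4:**
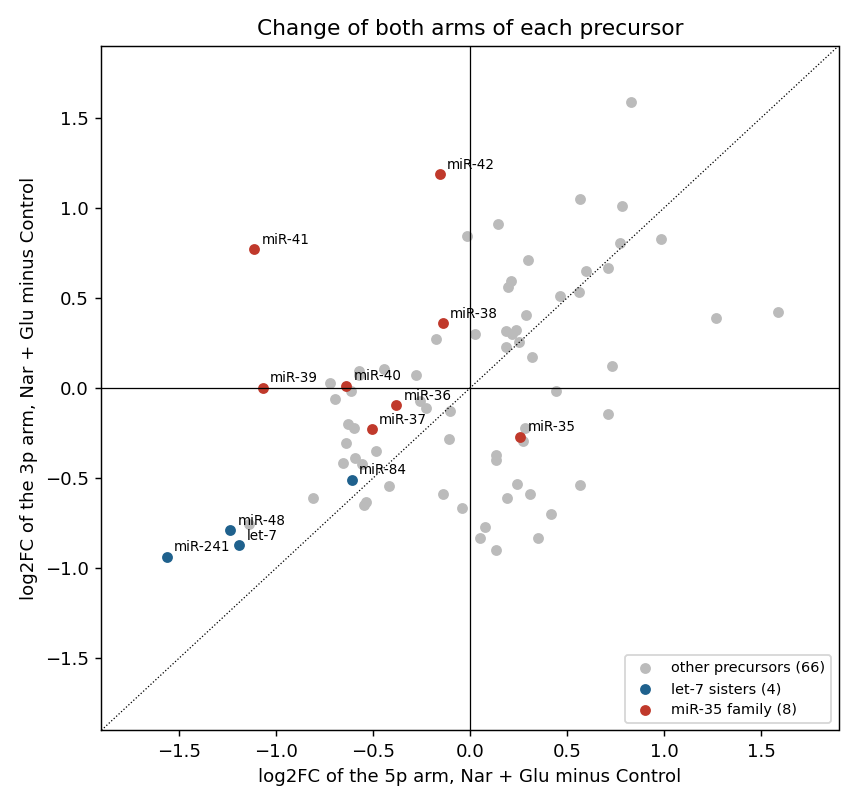
The log2FC of the 3p arm (vertical axis) against that of the 5p arm (horizontal axis) of each of 78 precursors, both as Nar + Glu minus Control, with the let-7 sisters in blue, the miR-35 family in red and equal change on the dotted line. The let-7 sisters lie together in the lower left with both arms below 0, and 7 of the 8 miR-35 family precursors lie above the dotted line, miR-41 and miR-42 farthest.

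The 4 members of the miR-2 family, which is found across invertebrates, split. miR-43-3p and miR-2-3p were higher as given above, and miR-797-5p was lower, at 15.4, 16.2 and 13.1 CPM in Nar + Glu, against 21.5, 27.1 and 21.3 CPM in Control. Its log2FC was −0.64 ± 0.20 (edgeR, adjusted p = 0.0125), and it was no longer called without Control replicate 2 (−0.53, adjusted p = 0.0548) or under total counts (−0.17, adjusted p = 0.508). Its log2FC against Control was −0.25 in Glu (adjusted p = 0.485) and −0.36 in DMSO + Glu (adjusted p = 0.181). miR-250-3p was lower by less than 1.5-fold with TMM (−0.42, adjusted p = 0.0365) and at 0.06 under total counts.

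In the miR-51 family, whose relative in other animals is miR-100, miR-52-5p was the only one of 6 members past the study's thresholds (16.7% higher, against 17.5% of all tested). It measured 20679, 17623 and 21365 CPM in Nar + Glu, against 12278, 12283 and 9868 CPM in Control, so that the lowest Nar + Glu library was above the highest Control library (log2FC 0.78 ± 0.15, edgeR, adjusted p = 0.000556). miR-53-5p was higher by less than 1.5-fold (0.39, adjusted p = 0.0227), and miR-54-3p, miR-55-3p and miR-56-3p, clustered on chromosome X, had intervals inside a 1.5-fold change. Against Control, miR-52-5p had a log2FC of 0.50 in Glu (adjusted p = 0.0604) and 0.50 in DMSO + Glu (adjusted p = 0.0138).

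No tested 3p arm of the miR-58 family, related to bantam of the fly, was called (5 tested, log2FC −0.41 to 0.03, with miR-58a-3p at −0.39 and an adjusted p of 0.0981). Without Control replicate 3, miR-58a-3p had a log2FC of −0.63 (adjusted p = 0.0011). Among the scarcer 5p arms of this family, named here after their values were seen, miR-58a-5p (−0.59), miR-81-5p (−0.72) and miR-82-5p (−0.69) were lower past the study's thresholds (edgeR, adjusted p = 0.00709, 0.00701 and 0.001), and miR-80-5p was lower by less than 1.5-fold (−0.48, adjusted p = 0.0172). Under total counts these 5p arms were at −0.14, −0.24, −0.24 and −0.03 in the same order, and none was called. In the miR-44 family miR-61-3p (−0.40) and miR-247-3p (−0.47) were lower by less than 1.5-fold with TMM (edgeR, adjusted p = 0.0152 and 0.0218) and at 0.06 and 0.01 under total counts. In the miR-72 family, related to miR-31, miR-73-3p was higher by less than 1.5-fold (0.56, edgeR, adjusted p = 0.00165). By their intervals, 2 of 3 members lay inside a 1.5-fold change, as did 18.8% of all tested.

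The 4 neighbours miR-229, miR-64, miR-65 and miR-66 on chromosome III (III:2172452-2173206) and miR-63 formed a list of 5 in which 4 of the listed arms were lower at an adjusted p under 0.05 (24.2% of all tested were) and 1 was past the study's thresholds. The arm listed for miR-63 is its 3p arm, the scarcer one (mean count 1409, against 2331 for miR-63-5p), and the commoner miR-63-5p was higher, as given above, with 1.02 under total counts. That one, miR-65-5p, from an intron of gcn-1, measured 1359.8, 1403 and 1536 CPM in Nar + Glu, against 2198, 2030.1 and 2241 CPM in Control. The log2FC was −0.60 ± 0.12 (edgeR, adjusted p = 0.000882), and the list's median was −0.45 with TMM and 0.03 with total counts, where miR-65-5p was at −0.13 and not called. Against Control, miR-65-5p had log2FC of −0.09 in Glu (adjusted p = 0.758) and −0.21 in DMSO + Glu (adjusted p = 0.245).

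Of 6 tested miRNAs linked to lifespan and stress, 2 were lower with TMM (33.3%, against 17% of all tested) and neither was called with total counts. One was miR-71-5p, above. The other was miR-238-3p, whose loss shortens the life of worms, at 2346, 2241 and 1935 CPM in Nar + Glu, against 3187, 3268 and 4149 CPM in Control (log2FC −0.70 ± 0.14, edgeR, adjusted p = 0.000882, and −0.24 under total counts). With TMM, miR-34-5p, miR-228-5p and miR-246-3p had intervals inside a 1.5-fold change, and miR-239a-5p had a log2FC of 0.25 with an interval from −0.15 to 0.65. Under total counts miR-34-5p (0.60, edgeR, adjusted p = 0.00299) and miR-239a-5p (0.73, adjusted p = 0.00424) were higher past the study's thresholds. On that scale miR-228-5p was higher by less than 1.5-fold (0.46, adjusted p = 0.0148) and miR-246-3p was not called (0.27, adjusted p = 0.169). The other arms of these 6 miRNAs are named here after their values were seen. miR-34-3p (0.91) and miR-228-3p (0.85) were higher past the study's thresholds (edgeR, adjusted p = 0.000435 and 0.000882), and also under total counts (1.37 and 1.32). The other arms of miR-71, miR-238, miR-239a and miR-246 were not called with TMM. Against Control, miR-238-3p had log2FC of −0.35 in Glu (adjusted p = 0.144) and −0.38 in DMSO + Glu (adjusted p = 0.0353).

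**Figure D5:**
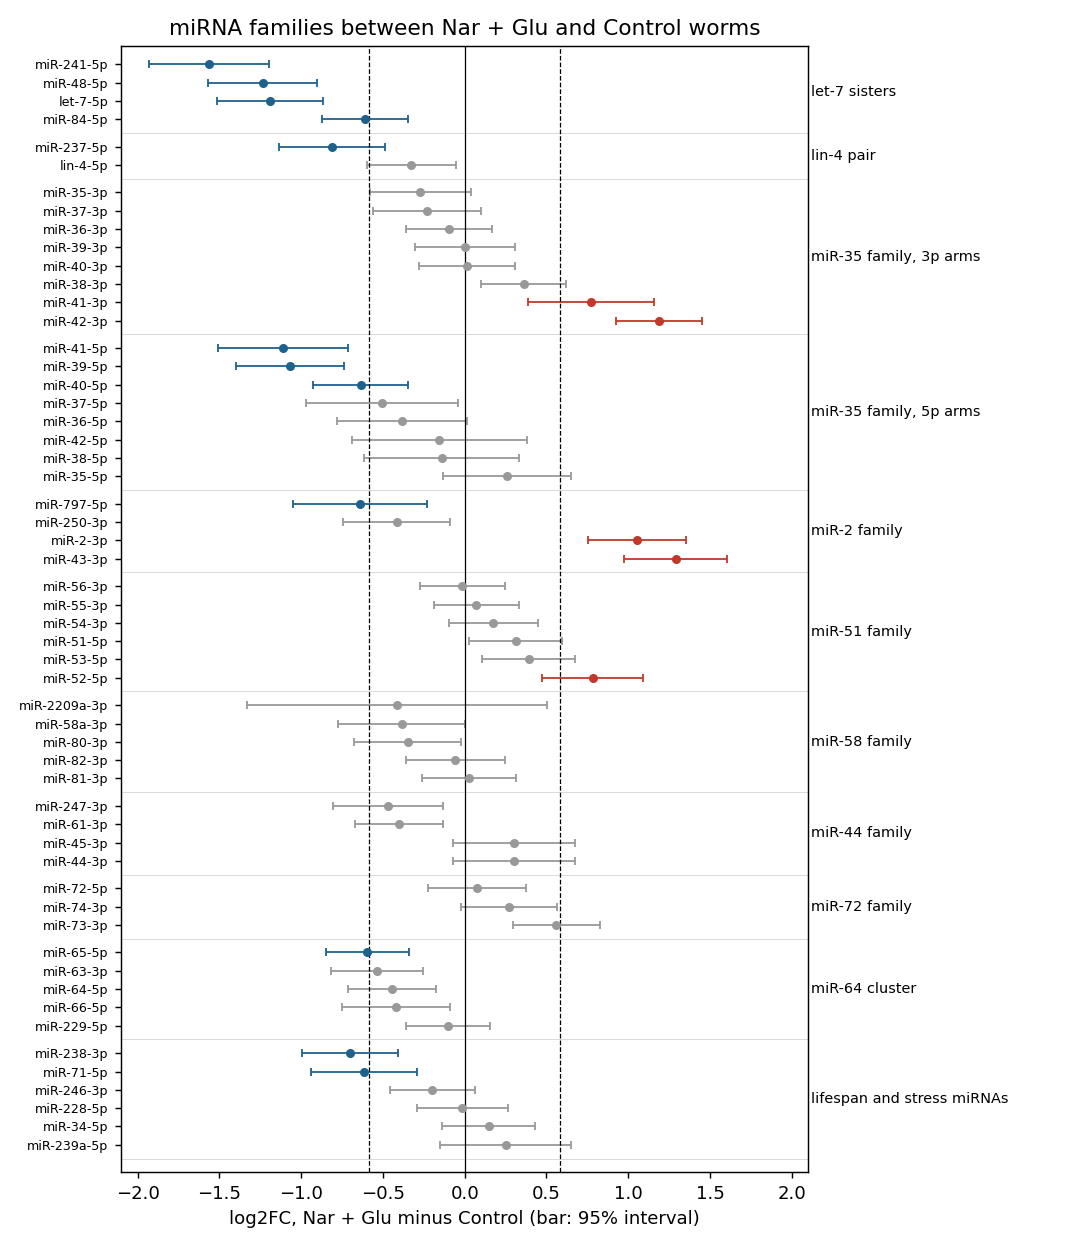
The log2FC (Nar + Glu minus Control, horizontal axis) of each tested member of the families and lists, with a bar for the 95% interval and dashed lines at a 1.5-fold change, red and blue marking miRNAs higher and lower past the study's thresholds. All 4 let-7 sisters are blue, the 3p arms of the miR-35 family spread from −0.27 to 1.19 and their 5p arms from −1.11 to 0.26.

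Among neuronal miRNAs, lsy-6-3p, which sets the left-right difference of a pair of taste neurons, was higher (log2FC 0.74, adjusted p = 0.0404), as was miR-124-3p (0.71, adjusted p = 0.0456), both in edgeR's test and both with a mean of under 34 counts per library. lsy-6-3p measured 7.31, 7.37 and 10.2 CPM in Nar + Glu, against 4.26, 6.61 and 3.96 CPM in Control. miR-124-3p measured 12.5, 7.61 and 9.39 CPM in Nar + Glu, against 5.08, 7.88 and 5.04 CPM in Control, so its groups overlapped. Against Control, lsy-6-3p had log2FC of 1.08 in Glu (edgeR, adjusted p = 0.0232) and 0.25 in DMSO + Glu (adjusted p = 0.569). For miR-124-3p the log2FC was 0.27 in Glu (adjusted p = 0.68) and 0.05 in DMSO + Glu (adjusted p = 0.921). The other 3 neuronal miRNAs had intervals inside a 1.5-fold change. miR-60-3p of the intestine did too, while miR-243-3p was lower by less than 1.5-fold (−0.50, adjusted p = 0.00539) and at −0.04 under total counts.

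Of the 71 miRNAs with a number of 1000 or above, which were annotated late and are mostly scarce, 44 had enough reads to be tested. Past the study's thresholds 10 were higher (22.7%, against 17.5% of all tested), miR-4813-3p and miR-1820-5p among them, and 4 were lower (9.09%, against 17% of all), among them miR-1817. Their median log2FC was 0.21. miR-1829b-3p and miR-1829c-3p, 2 of the 4 lower, had nearly equal counts, so how reads were divided between them is uncertain. Guide arms as a class had 13 higher (14.3%) and 19 lower (20.9%) of 91 tested, and passenger arms 13 higher (16.7%) and 14 lower (17.9%) of 78, with medians of −0.02 and −0.03. These shares are near the 17.5% and 17% over all miRNAs tested.

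By position, the share of lower calls was highest on chromosome V, with 10 of 22 tested miRNAs lower and 4 higher at an adjusted p under 0.05 and a median log2FC of −0.37, where 24.2% of all tested were lower and 23.3% higher. Chromosome IV had 4 lower and 12 higher of 32, with a median of 0.29. The 4 arms of miR-48 and miR-241 and 3 of the 4 arms of miR-250 and miR-61 (V:11769917-11770156) were among the lower ones of chromosome V. These counts are a description, since arms of one precursor and neighbours in a cluster share their transcript.

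A p over the threshold does not show that a miRNA was at the untreated level, but an interval can bound the difference. For 42 miRNAs (18.8%) the 95% interval of the log2FC lay wholly inside a 1.5-fold change in either direction, and for 104 miRNAs the data neither met the study's thresholds nor bounded the change this closely. The bounded ones included abundant miRNAs: miR-35-3p (log2FC −0.27, interval −0.58 to 0.04), miR-37-3p (−0.23, −0.56 to 0.10), miR-39-3p (0.00, −0.30 to 0.31), miR-72-5p (0.08, −0.22 to 0.37) and miR-82-3p (−0.06, −0.36 to 0.24). miR-39-3p measured 25925, 22513 and 30214.6 CPM in Nar + Glu, against 27425, 25999 and 24556 CPM in Control, and the Control range lay within that of Nar + Glu. Of miRNAs with a mean count under 50, only miR-791-3p was bounded in this way. These bounds hold on the TMM scale. Under total counts miR-39-3p had a log2FC of 0.48 (adjusted p = 0.0144), miR-72-5p 0.55 (adjusted p = 0.00363) and miR-82-3p 0.40 (adjusted p = 0.0368).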

How the data were processed

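Small RNA of whole worms was sequenced on a NextSeq 500. Per the study's methods, the authors kept reads of good base quality, trimmed adapters and dropped fragments under 17 nt with Cutadapt 1.14, and counted mature miRNAs with mirdeep2. The values deposited by the authors are raw counts, unscaled, in a column for each library. The submitters' processing notes name WBcel235 as build. Neither the miRBase release nor the treatment of multimapping reads is given in the sources used here. A poly(A) step stands before the small RNA kit in the labels, but belongs to the mRNA libraries in the methods. Only the miRNA data were analysed here.

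Sample titles gave the groups and replicate numbers. The combined table equalled the per-sample tables in 12 of 12 libraries. It held 263 distinct names, and of 5 repeated names the entry with the higher total was kept. Names with identical counts in every library were miR-44-3p with miR-45-3p, and miR-8187-3p with miR-8188-5p, whose reads cannot be told apart.

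The 6 libraries of Nar + Glu and Control were fitted with edgeR 4.0.16 (R 4.3.3), with TMM scaling, glmQLFit and glmQLFTest. The filter on low counts was filterByExpr with a minimum count of 10 and a minimum total of 15. P-values were adjusted by Benjamini-Hochberg over all 223 miRNAs tested, and SEs and 95% intervals were derived from the quasi-likelihood F. Glu and DMSO + Glu were each fitted against Control in the same way. CPM values use TMM factors over all 12 libraries. Single values per library were compared by two-sided exact permutation over 20 splits. Arm ratios used a pseudocount of 0.5. Totals ranged from 2640879 to 5868806 counts per library, and intervals on few reads are correspondingly wide. Counts were simulated for the miRNAs tested, some changed by a log2FC of 1, as many up as down, with the TMM factors taken as true. Of the simulated miRNAs, 220 passed the filter again, 43 of them changed. All 43 were recovered past the study's thresholds, with 2 false calls. Because the factors were taken as true, this simulation cannot show which scale is right. Precursor positions come from the WBcel235 gene annotation (219 of 223 tested miRNAs matched). matplotlib 3.10.9 drew the plots.

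miRNAs were named by a rule: the 10 with the smallest p, the 5 largest rises and 5 largest falls among non-overlapping calls, the 5 most abundant, list members past the study's thresholds, and the 5 most abundant with an interval inside 1.5-fold. Members, lists and this rule were chosen with earlier results of these data known. Alternatives were other scalings (size factors of DESeq2, total counts, no miR-1-3p), other tests (DESeq2 1.42.0, the exact test of edgeR), other filters, all 12 libraries in 1 fit, a replicate block, thinning to equal totals, other handling of names, and each library left out in turn. Averaging Nar + Glu replicates 1 and 2 was added after seeing the data.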

Additional observations from a re-analysis of the deposited data

How the results depend on the processing

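Of the values that answer the comparison (calls past the study's thresholds, adjusted calls, bounded miRNAs, the shares of miR-1-3p and of the 5 most abundant, and the arm ratio of the miR-35 family), all but the arm ratio stayed within 1.5 times of the reported count or within 1 SD under every alternative run. Apart from the runs that left a library out, calls past the study's thresholds numbered 55 (mean count of at least 100) to 104 (total counts alone, 97 higher and 7 lower). In the same runs, adjusted calls numbered 81 (replicate block) to 116 (total counts alone), and bounded miRNAs 33 (replicate block) to 45. With each library left out in turn these counts were 75 to 79, 80 to 109 and 35 to 43, the difference in the share of miR-1-3p was −13.9 to −8.85 percentage points, that of the 5 most abundant −9.63 to −6.39, and the median arm ratio of the miR-35 family −0.83 to −0.34. The widest effect was that of total counts, which moved 31 of the 38 lower calls under the threshold as given above. A similar count does not show that the same miRNAs were counted. Under total counts 109 adjusted calls were higher and 7 lower, against 52 and 54 with TMM. Bounded miRNAs numbered 43 there and 42 with TMM, but miR-39-3p, miR-72-5p and miR-82-3p, bounded with TMM, became higher adjusted calls.

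Deviations of same-numbered libraries from their group means correlated at −0.19, −0.02 and −0.37 over miRNAs. With 3 libraries per group the deviations of a group cancel out, so these values depend on each other. They cannot exclude that the replicate numbers pair the libraries. With the number as a replicate block, 76 miRNAs passed the study's thresholds and 81 the adjusted one. Nar + Glu replicates 1 and 2 were closer to each other than any other pair (chi-square per degree of freedom 20.4, others 65.3 to 707). With both averaged into 1 sample, 75 passed the study's thresholds and 91 the adjusted one.

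No call past the study's thresholds changed sign under total counts, but none could have. Total counts raised every log2FC, by at most 0.50 (let-7-5p), and the smallest fall among the lower calls was −0.59 (miR-235-3p). The unchanged signs are therefore not a test of those calls. Among lower calls under 1.5-fold, lin-4-5p turned to 0.15, miR-61-3p, miR-250-3p, miR-66-5p, miR-788-3p and miR-248 each to 0.06, miR-64-5p to 0.03 and miR-247-3p to 0.01. Of miRNAs not called with TMM, miR-58a-3p was at 0.10 under total counts, miR-70-3p at 0.17, miR-35-3p at 0.20, miR-37-3p at 0.24 and miR-82-3p at 0.40. miR-39-3p, reported at 0.00, was at −0.0011 with the size factors of DESeq2 and with DESeq2, −0.0278 without miR-1-3p, −0.0244 without a filter, −0.0168 with a mean count of at least 100, −0.00205 with the replicate block, −0.0222 with identical names merged, and −0.091 to 0.0903 with each library left out in turn. Left out in the same way, miR-72-5p ran from −6.54e-05 to 0.12 and miR-82-3p from −0.119 to 0.0384. Without Control replicate 3, miR-70-3p (−0.42, adjusted p = 0.0112) and miR-35-3p (−0.39, adjusted p = 0.019) had an adjusted p under 0.05 in edgeR's test. The cause was not tested.

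The libraries of Nar + Glu were shallower than all of Control, so at an equal level a scarce miRNA is measured less well in that group. miR-232-5p had few reads in both groups, with 9, 19 and 13 counts in Nar + Glu and 8, 4 and 6 in Control. Thinned to 2640879 counts each, 76 miRNAs passed the study's thresholds and 95 the adjusted one.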
